A study of Mus musculus with 8 samples.

Results

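Collagen VI is a heterotrimer of 3 alpha chains that assembles into beaded microfilaments close to the cell surface, where it links fibroblasts to the surrounding matrix. Its main chains are the products of Col6a1, Col6a2 and Col6a3, and in connective tissues such as the dermis it is made largely by fibroblasts. Col7a1 encodes the chain of collagen VII, which forms the anchoring fibrils that fasten the epidermal basement membrane to the dermis and is made by keratinocytes and fibroblasts. Col8a1 encodes a short-chain collagen of hexagonal networks, known from vessel walls and from the basement membrane of the corneal endothelium. These 5 genes were followed in dermal fibroblasts of ageing mice, through every probe set annotated to exactly 1 of them. This gave 8 probe sets out of 28898 with a single gene, and all 5 genes out of 17097 were measured. Col6a1, Col6a3 and Col7a1 had 1 probe set each, Col6a2 had 2 and Col8a1 had 3.

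The samples were fibroblasts from the back skin of 8 mice, 12 months old at the start and treated 3 times a week for 6 months. In the GW9662 group, 4 mice received 150 nmol of GW9662, which blocks the nuclear receptor PPARG irreversibly, in 300 µl of acetone on the skin, and in the vehicle group 4 mice received acetone alone. Strain, sex and genotype are not given in the sources used here. Cells were sorted as Pdgfra and CD34 positive and as negative for CD45, CD117, CD24, CD31 and EpCam, a gate that is meant to leave out blood, endothelial and epithelial cells. RNA of 5000 cells per animal was amplified over 21 cycles and hybridised to 1 array. One animal of each group was killed on the same day, and samples with the same replicate number were read as such pairs. The question addressed was how long-term inhibition of PPARG alters these fibroblasts.

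Signals are RMA values on the log2 scale, where a difference of 1 is a doubling. The sample medians over all probe sets lay between 4.63 and 4.69. Levels of different probe sets are not comparable as amounts of transcript, so each gene is compared with itself across samples. Of the markers of the gate, Cd34 measured 10.72 ± 0.15 (SD, n = 4) in vehicle and 10.72 ± 0.04 after GW9662, while Pdgfra measured 4.86 ± 0.23 and 4.96 ± 0.17. The Pdgfra signal was thus close to the array median although its protein was gated on. Thy1, Pdgfrb, Lum and Dcn, other genes of fibroblasts, had no signal under 8.81. Pparg, the gene of the inhibited receptor, had a log2 difference between the groups of -0.02 ± 0.14 (SE). Its signals of 4.46 to 5.13 were also close to the array median, which limits what this difference can show. Vehicle 4 stood apart on the first principal component of all genes, at 22.2 against -10.4 to 5.49 in the other 7 samples.

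All 3 collagen VI chains had higher mean signals after GW9662 than in vehicle, and each was higher in 4 of 4 pairs, but no chain passed the test. The log2 difference was 0.22 ± 0.12 (SE, n = 4 per group) for Col6a1, 0.32 ± 0.17 for Col6a2 and 0.40 ± 0.27 for Col6a3, or 1.17-fold, 1.25-fold and 1.31-fold. Col7a1 had the largest difference of the 5 genes, 0.51 ± 0.37, and it came mainly from 1 animal. Col8a1 went the other way, with -0.14 ± 0.09. In limma over all genes, each of the 5 genes had an adjusted p of 0.997, and 0 of 17097 genes passed at 0.05 (0.0%). A different RNA content per cell and a different share of cells that make a chain cannot be told apart in such bulk samples.

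Col6a1 encodes the first of the 2 shorter collagen VI chains. Its signals in vehicle replicates 1 to 4 were 10.90, 10.95, 10.94 and 10.69, and after GW9662 they were 11.26, 11.15, 11.24 and 10.72. GW9662 replicates 1 to 3 lay above all vehicle samples, whereas GW9662 4 lay below 3 of the 4 vehicle samples, so the groups overlapped. The pair differences were 0.36, 0.20, 0.30 and 0.03, all positive and smallest in pair 4. The 95% interval of the mean difference ran from -0.04 to 0.49 (limma unadjusted p = 0.0912), and the exact permutation p was 0.143 over 70 assignments.

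Col6a2 encodes the other short chain and was read by 2 probe sets that share a source sequence accession. On the brighter probe set, the signals were 10.02, 10.01, 10.20 and 9.69 in vehicle and 10.41, 10.37, 10.62 and 9.80 after GW9662. On the other they were 9.93, 9.96, 10.12 and 9.43 in vehicle and 10.34, 10.32, 10.51 and 9.65 after GW9662. On both, GW9662 replicates 1 to 3 exceeded every vehicle sample, and both samples numbered 4 were the lowest of their groups. The brighter set differed by 0.39, 0.36, 0.42 and 0.11 in pairs 1 to 4, and the dimmer set by 0.41, 0.36, 0.39 and 0.22. The second set gave a difference of 0.34 ± 0.19 (SE, n = 4 per group), close to the 0.32 ± 0.17 of the first. The 2 sets correlated over the 8 samples with Pearson's r = 0.989 (exact permutation p = 4.96e-05) and Spearman's rho = 0.976 (exact p = 3.97e-04). They overlap in what they measure and are not independent evidence of a difference.

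Col6a3 encodes the long chain, whose C-terminal end is cleaved off as endotrophin. Its signals were 9.51, 9.61, 10.24 and 9.22 in vehicle and 10.39, 10.17, 10.36 and 9.24 after GW9662. Vehicle 3 lay above GW9662 2 and GW9662 4, and GW9662 4 was only 0.02 above the lowest vehicle sample, so the groups overlapped. The pair differences were 0.88, 0.56, 0.12 and 0.02, large in pairs 1 and 2 and small in pairs 3 and 4. This was the most variable of the chains, with an SD over all 8 samples of 0.50, against 0.22 for Col6a1 and 0.32 for Col6a2. The 95% interval of the mean difference ran from -0.21 to 1.00 (limma unadjusted p = 0.175, exact permutation p = 0.343).

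**Figure D1:**
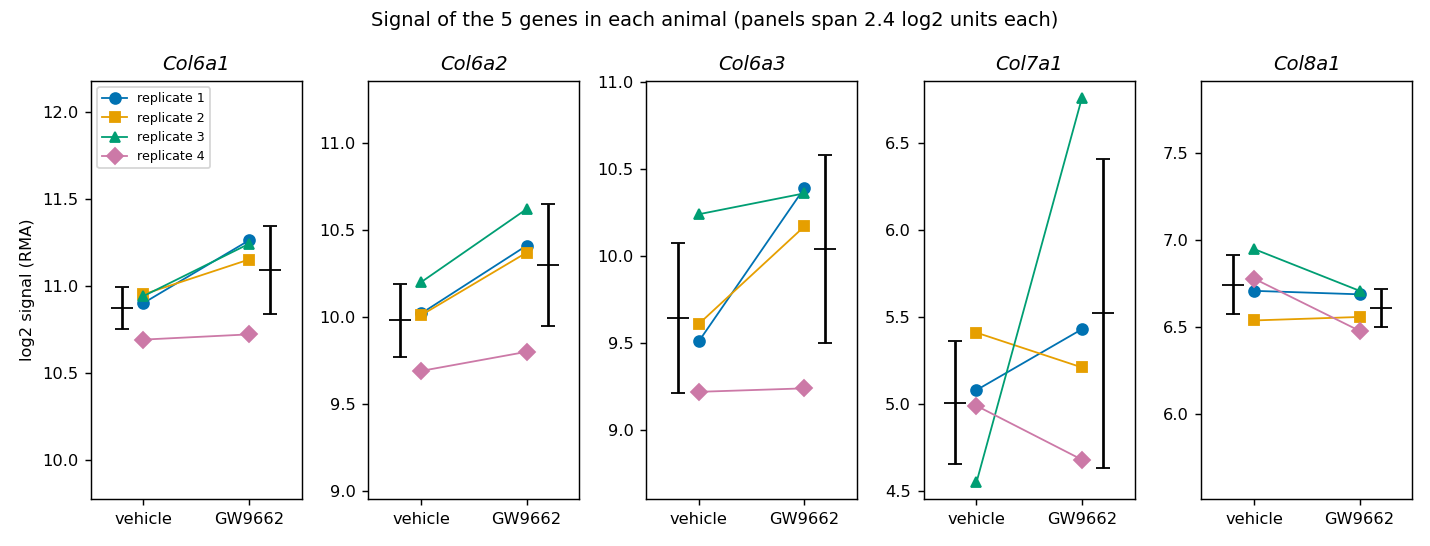
RMA signal on the log2 scale of Col6a1, Col6a2, Col6a3, Col7a1 and Col8a1 in vehicle and GW9662 samples, 1 panel per gene with its brightest probe set. Lines join samples with the same replicate number, and black bars beside the points are the mean ± SD of each group (n = 4). Every line of the 3 collagen VI chains slopes upward, the replicate 4 samples are the lowest of their groups in these chains, and Col7a1 has 1 high sample at 6.76.

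The samples numbered 4 carried much of the spread of the collagen VI chains. The replicate number took up 61.2%, 66.9% and 68.5% of the sum of squares over the 8 samples for Col6a1, Col6a2 and Col6a3, and the treatment 29.5%, 28.9% and 17.9%. Over all genes the medians were 47.3% for the replicate number and 7.47% for the treatment. The replicate number has more levels than the treatment and so takes up a larger share by construction. Each share is therefore read only against its own median. With the replicate number as a block in limma, the unadjusted p was 0.0184 for Col6a1, 0.00281 for Col6a2 and 0.0218 for Col6a3, while the adjusted p was 0.966 for each. At an unadjusted p under 0.05 with the block, 4.83% of all genes were called and 2.42% were called higher. The share of all genes higher in 4 of 4 pairs, as the 3 chains were, was 5.46%. Because the chains varied together over the same animals, they do not count as 3 independent genes against these shares. An exact permutation of the signs within pairs gave p = 0.125 for each chain, the smallest value that 4 pairs allow.

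Single samples moved these values, mainly those of pair 4. Without GW9662 4 the differences were 0.35, 0.49 and 0.66 for Col6a1, Col6a2 and Col6a3, and together with Col7a1 they made 4 member genes with an unadjusted limma p under 0.05, where 2.44% of all genes were called higher. Without vehicle 4, the sample that stood apart on the first principal component, the differences were smaller, at 0.16, 0.22 and 0.25. The unadjusted limma p was then 0.219, 0.213 and 0.390. Without both samples of pair 4 they were 0.29 ± 0.07, 0.39 ± 0.09 and 0.52 ± 0.17 (SE, n = 3 per group), with unadjusted p of 0.00226, 0.00239 and 0.0163, and the adjusted p was 0.917 for each. The share of all genes called higher at an unadjusted p under 0.05 was then 2.36%, or 2.61% with the replicate block added. Here too the chains are not independent of one another, so their number cannot be weighed against such shares. For Col6a3, leaving out vehicle 3, its highest vehicle sample, gave 0.59 with an unadjusted limma p of 0.0445.

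**Figure D2:**
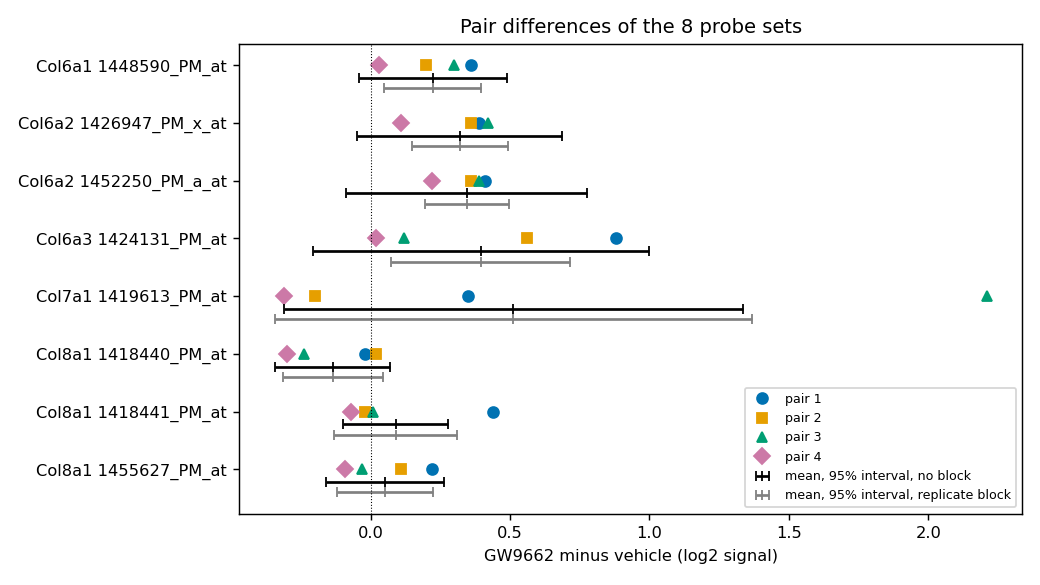
Difference of GW9662 minus vehicle on the log2 scale for each of the 8 probe sets. Coloured points are the 4 same-numbered pairs, and bars are the limma mean with its 95% interval without the block (black) and with the replicate block (grey). All points of the 4 collagen VI probe sets lie above 0, the pair 4 points are nearest to 0 among them, and Col7a1 has 1 pair at 2.21.

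The 3 chains varied together from animal to animal, and this was not particular to them. The mean of the 3 chains had r = 0.918 with the mean signal of the 9 fibril-forming collagen genes described below. With that of the 14 genes that fold, modify and secrete collagens, r was 0.927. It was lower, 0.187 to 0.497, with the other related lists, and these values were not tested. Over the 8 samples Pearson's r was 0.963 for Col6a1 and Col6a2 (exact permutation p = 3.97e-04, adjusted p = 0.00397 over 10 gene pairs). It was 0.912 for Col6a1 and Col6a3 (exact p = 0.00154, adjusted p = 0.00513) and 0.944 for Col6a2 and Col6a3 (exact p = 8.18e-04, adjusted p = 0.00409). Spearman's rho was 0.905, 0.929 and 0.929 in the same order, with exact permutation p of 0.00456, 0.00223 and 0.00223 (adjusted p = 0.0152, 0.0112 and 0.0112). The exact tests take the 8 animals as exchangeable, which the pairing by day limits. Of the 17096 other genes, 7 had a higher r with Col6a1 than Col6a2 had, and 5 a higher r with Col6a2 than Col6a1 had. For Col6a1 and Col6a3 these counts were 49 with Col6a1 and 42 with Col6a3, and for Col6a2 and Col6a3 they were 14 with Col6a2 and 5 with Col6a3. After the group means were removed, r was 0.947, 0.897 and 0.937. After group and replicate number were both removed, it was 0.925, 0.658 and 0.539, values that rest on the differences of only 4 pairs. Without the 2 samples farthest from the median of the first gene, r was 0.961, 0.841 and 0.952, and without both samples of pair 4 it was 0.910, 0.787 and 0.873. None of these values on 6 samples passed the adjustment over 10 gene pairs.

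Of the pairs outside collagen VI, none passed the adjustment. Col7a1 had r = 0.667 with Col6a1 (exact permutation p = 0.0495, adjusted p = 0.0989), and Spearman's rho was 0.786 (exact p = 0.0279, adjusted p = 0.0698). With Col6a2 its r was 0.680 (exact p = 0.0480, adjusted p = 0.0989; rho = 0.643, exact p = 0.0962, adjusted p = 0.192). Without the 2 samples farthest from the median of the collagen VI gene, GW9662 3 among them, these r values were 0.418 and 0.425, so the relation rests on those samples. Col8a1 had r between -0.106 and 0.322 with the other 4 genes, each with an exact permutation p of at least 0.447 and an adjusted p of at least 0.639. Its r with Col6a1, Col6a2 and Col6a3 was higher once group means were removed, at 0.378, 0.522 and 0.660. With group and replicate number both removed it was 0.523, 0.568 and 0.905, the last above the 0.658 and 0.539 between Col6a3 and the other chains under the same removal. What remains within pairs is only the differences of 4 pairs about their mean, too few to rank one r above another. Col8a1 entered by its brightest probe set alone, and these values were not tested.

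**Figure D3:**
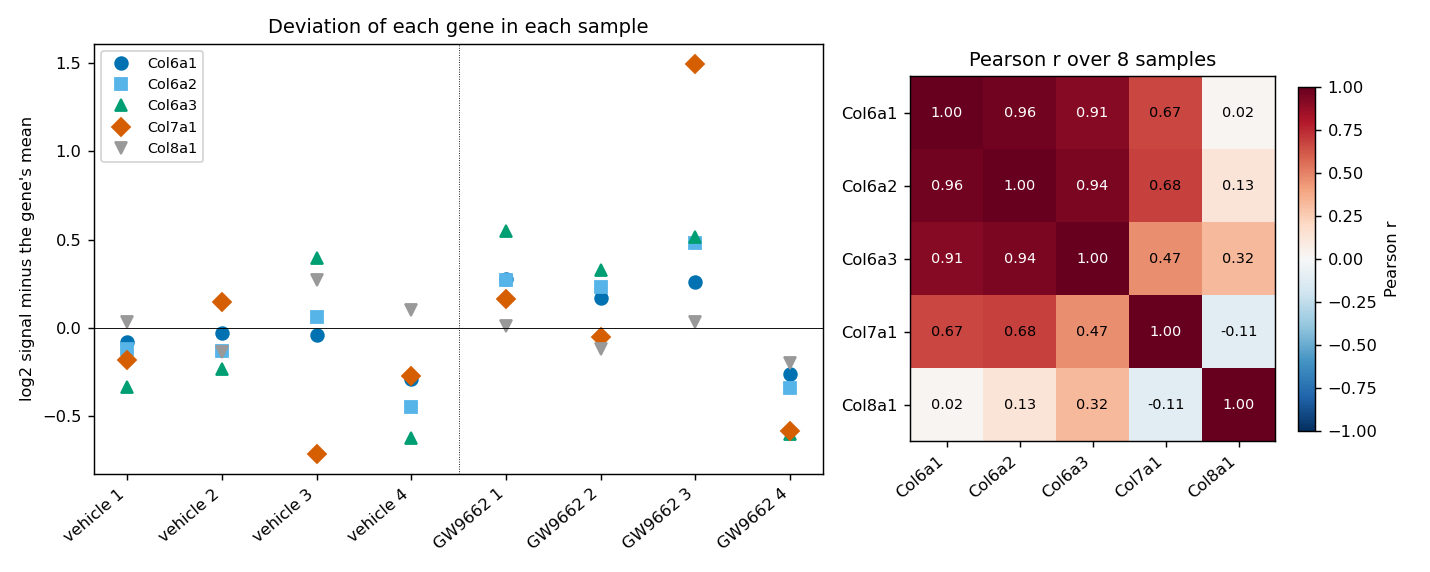
Left, deviation of each gene's log2 signal from its own mean over 8 samples, by sample. Right, Pearson's r between the genes over the 8 samples. The collagen VI chains lie on the same side of their means in 7 of 8 samples, with r of 0.91 to 0.96 among them, against 0.02 to 0.32 between Col8a1 and these chains before group means are removed.

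Whether the treatment difference was unequal between chains was tested on the difference between 2 chains within each sample. Relative to Col6a1, Col6a2 was higher after GW9662 by 0.10 ± 0.09 (SE, n = 4 per group) and Col6a3 by 0.17 ± 0.23. Relative to Col6a2, Col6a3 was higher by 0.08 ± 0.17. The exact permutation p was 0.314, 0.486 and 0.657, and the adjusted p was 0.657 for each of the 3. Col6a2 was higher relative to Col6a1 in 4 of 4 pairs, by 0.03 to 0.16, and Col6a3 in 2 of 4. An exact permutation of the signs within pairs gave p = 0.125, 0.5 and 0.75 in the same order, where 0.125 is the smallest value that 4 pairs allow. No difference between chains passed either test, and the SEs leave room for unequal change.

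Col6a1 and Col6a2 lie on chromosome 10 with 0 protein-coding genes between them in RefSeq's GRCm38.p6 annotation, and Col6a3 lies on chromosome 1. Because the 3 genes varied together, the bases before their RefSeq starts (GRCm38.p6) are shown, each on the gene's own strand, as far as they lie outside the RefSeq gene. Capitals mark GGGAGGG or its complement CCCTCCC.
Col6a1, chr10:76726045-76726294, minus strand: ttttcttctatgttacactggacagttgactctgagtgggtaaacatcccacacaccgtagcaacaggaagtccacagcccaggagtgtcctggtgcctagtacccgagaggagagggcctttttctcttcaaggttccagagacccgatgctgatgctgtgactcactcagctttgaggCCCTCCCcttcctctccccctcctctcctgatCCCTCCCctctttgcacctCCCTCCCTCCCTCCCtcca
Col6a2, chr10:76623631-76623880, minus strand: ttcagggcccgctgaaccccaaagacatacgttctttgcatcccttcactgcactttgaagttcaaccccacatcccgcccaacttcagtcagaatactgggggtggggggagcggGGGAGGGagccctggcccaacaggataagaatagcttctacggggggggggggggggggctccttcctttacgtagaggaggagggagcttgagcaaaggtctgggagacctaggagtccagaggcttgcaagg
Col6a3, chr1:90844002-90844221, minus strand: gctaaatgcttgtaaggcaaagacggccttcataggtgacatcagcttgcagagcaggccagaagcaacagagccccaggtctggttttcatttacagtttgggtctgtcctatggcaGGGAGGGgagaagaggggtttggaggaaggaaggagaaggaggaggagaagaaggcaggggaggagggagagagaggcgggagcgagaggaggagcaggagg
Both strands of the 250 bases before each start were searched. GGGAGGG occurred 5 times before Col6a1, 3 of them overlapping one another, and 1 time in each of the windows shown for Col6a2 and Col6a3. A further RefSeq start of Col6a2 had 2 before it. It also occurred 1 time before Col8a1 and 0 times before Col7a1, and 19.7% of 32851 mouse windows of that length hold it. The direct repeat of AGGTCA with 1 base between the copies, to which PPARG is known to bind with RXR, was in none of the members' windows and is in 0.0335% of all windows. A single AGGTCA was found 1 time, before Col7a1, and 14.0% of all windows hold one. TGANTCA, the core bound by AP-1, was found 1 time, before Col6a1, and is in 6.75% of all windows. TATAAA was in none of the members' windows (12.4% of all), CCAAT was found 1 time, before Col7a1 (33.8%), and GGGCGG before Col6a2, Col7a1 and Col8a1 but not before Col6a1 or Col6a3 (32.7%). GGGCGG and GGGAGGG can overlap in runs of G. These matches describe letters and not binding.

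Col7a1, the anchoring fibril collagen, showed a difference between the groups that rested on 1 animal. Its signals were 5.08, 5.41, 4.55 and 4.99 in vehicle and 5.43, 5.21, 6.76 and 4.68 after GW9662. Vehicle 3 lay below the median signal of its array, 4.63, and GW9662 4 lay close to that of its own, 4.65. GW9662 3 was the highest of all 8 samples and its partner vehicle 3 the lowest, while the other 6 values lay between 4.68 and 5.43 and overlapped. The pair differences were 0.35, -0.20, 2.21 and -0.31, 2 positive and 2 negative. The 95% interval of the mean difference of 0.51 ran from -0.31 to 1.33 (limma unadjusted p = 0.195, exact permutation p = 0.343). Without GW9662 3 the difference was 0.10, and without GW9662 4 it was 0.79. Without both samples of pair 3, a choice made after the values had been seen, it was -0.0533 ± 0.19 (SE, n = 3 per group). The replicate number took up 20.9% and the treatment 16.2% of its sum of squares, and 63.0% remained within pairs, unlike in the chains of collagen VI, where that rest was 4.27% to 13.7%.

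For keratinocytes, the other source of collagen VII, markers were set beside these values. The mean log2 signal of the 12 keratinocyte markers was 4.60 in GW9662 3, and 4.61 to 4.67 in the other 7 samples. Single markers went both ways in GW9662 3. Trp63, a transcription factor of basal keratinocytes, was at 6.06 in GW9662 3 and at 6.33 to 6.83 in the others, and Cdh1 was also lowest there, at 2.86. Krt1 and Dsp were highest there, at 4.00 and 3.60, and Perp tied for its highest signal, at 3.08. Krt5 and Krt14, keratins of the basal layer, lay between 5.62 and 5.97 and between 5.06 and 5.46 over all samples, with group differences of 0.04 and 0.02. Detection calls were not used here, so no marker can be called absent, and the part of keratinocytes in the Col7a1 signal was not tested.

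Col8a1, the short-chain network collagen, was read by 3 probe sets that did not behave alike. The brightest measured 6.71, 6.54, 6.95 and 6.78 in vehicle and 6.69, 6.56, 6.71 and 6.48 after GW9662. The next measured 3.68, 4.00, 3.99 and 3.98 in vehicle and 4.12, 3.98, 4.00 and 3.91 after GW9662. The dimmest measured 2.82, 2.82, 3.18 and 2.98 in vehicle and 3.04, 2.93, 3.15 and 2.89 after GW9662. On all 3 the groups overlapped, and the latter 2 sets lay below the median signal of every array. Their differences were -0.14 ± 0.09, 0.09 ± 0.08 and 0.05 ± 0.09 (SE, n = 4 per group), so the direction depended on the probe set, and the mean of the 3 sets differed by 0.0025. The 95% interval on the brightest set ran from -0.34 to 0.07 (limma unadjusted p = 0.176, exact permutation p = 0.257). It was lower in 3 of 4 pairs, by 0.02, 0.24 and 0.30, and higher by 0.02 in pair 2. Without vehicle 3, its highest sample, the difference was -0.07, and without vehicle 2, its lowest vehicle sample, -0.20 (limma unadjusted p = 0.044). Between sets, Pearson's r over the 8 samples was 0.049 for the brightest and the next, 0.694 for the brightest and the dimmest and 0.525 for the other two (exact permutation p = 0.923, 0.0553 and 0.187; adjusted p = 0.923, 0.111 and 0.249 over the 4 relations within genes). Spearman's rho was 0.030, 0.620 and 0.491 (exact p = 0.949, 0.107 and 0.220). Without the 2 samples farthest from the median, r was -0.167, 0.447 and 0.357.

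**Figure D4:**
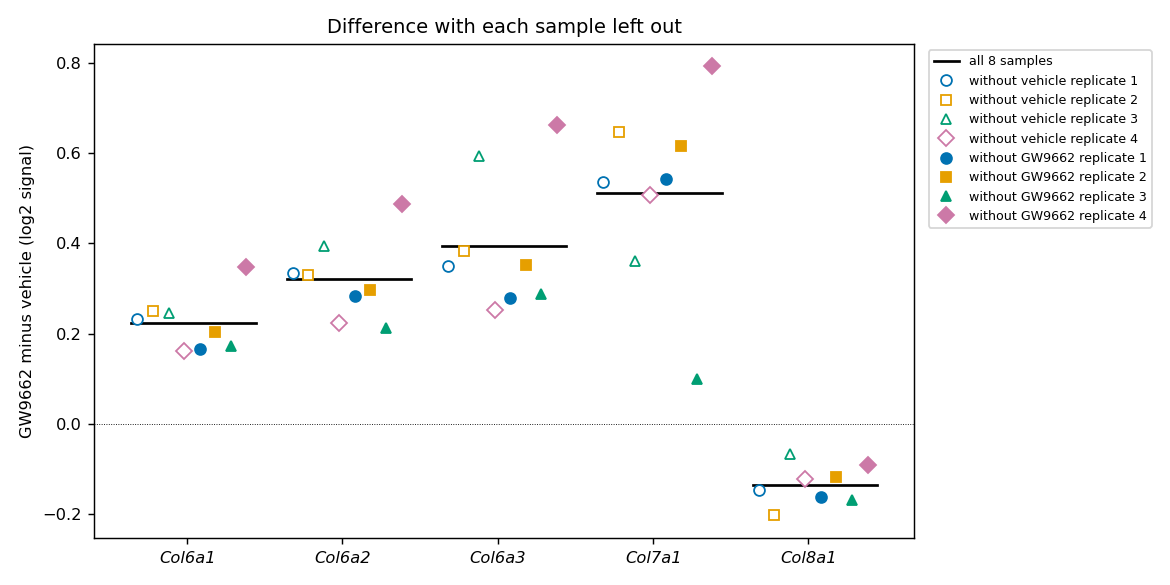
Mean difference of GW9662 minus vehicle on the log2 scale for each gene with all 8 samples (black line) and with each sample left out in turn (open points for vehicle, filled for GW9662). The collagen VI chains stay between 0.16 and 0.66, Col7a1 drops to 0.10 without GW9662 3, and Col8a1 stays between -0.20 and -0.07 on its brightest probe set.

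The further chains of these collagens had low signals and small differences. Col6a4, Col6a5 and Col8a2, the last the partner chain of Col8a1, lay between 3.39 and 4.70 in all samples and differed by 0.04, 0.03 and 0.04. All 3 of the 4 listed chains that were measured were higher by any amount, with a median of 0.04. Over all genes, 47.0% were higher and 51.8% lower by any amount and the median was -0.005, while 4 of the 5 genes described here were higher, with a median of 0.32. Of all 17097 genes, 3.38% had an unadjusted p under 0.05, and the groups did not overlap in 1.75%. Among the 5 genes both counts were 0.

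Genes whose products bind or sense collagen VI were split in direction. Of 12 measured partners and receptors (13 listed), 6 were higher and 6 lower. Their median log2 difference was 0.0088. None passed limma's test over all genes. Matn3, a matrilin, was at -0.15 ± 0.06 (SE, n = 4 per group; -0.10 with its probe sets averaged). Its groups did not overlap, and its unadjusted limma p was 0.0326, but its signals of 3.82 to 4.11 lay below the median signal of every array. Itgb1, the beta chain shared by the collagen-binding integrins, was at 0.21 ± 0.10 and higher in 4 of 4 pairs (0.13 without vehicle 4 and 0.12 with its probe sets averaged). Matn2, another matrilin, was at 0.34 ± 0.22 (0.16 to 0.51 with single samples left out). The collagen VI receptor gene Antxr1, which also is a receptor of anthrax toxin, was lower in 4 of 4 pairs, at -0.08 ± 0.09 (-0.02 without vehicle 4). Over all genes, 5.93% were lower in 4 of 4 pairs.

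Partners of collagen VII at the junction of dermis and epidermis were split in direction. Of 11 measured genes of the anchoring complex (13 listed), 4 were higher and 7 were lower, where 51.8% of all genes were lower. Their median was -0.03, and without the replicate block 0 had an unadjusted limma p under 0.05. The smallest p values were those of Dst, which encodes a plakin of hemidesmosomes, at -0.17 ± 0.09 (SE, n = 4 per group), Frem1, a matrix protein of the basement membrane zone, at 0.19 ± 0.11, and Lama3, a laminin chain, at -0.09 ± 0.09. Dst was at -0.07 with its probe sets averaged, and with single samples left out Frem1 ranged from 0.10 to 0.25 and Lama3 from -0.13 to -0.02.

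Most of the genes that fold, modify and secrete collagens had higher means after GW9662. Of 14 measured genes (16 listed), 12 were higher, 6 of them in 4 of 4 pairs, and 2 were lower. Over all genes 47.0% were higher and 5.46% were higher in 4 of 4 pairs. The median was 0.11. None had an unadjusted limma p under 0.05, and 3 had one with the replicate block, all higher, where 2.42% of all genes were called higher. Each had a positive r over the samples with the mean of the collagen VI chains, from 0.456 (Pcolce) to 0.905 (P4hb). They thus do not count as 14 independent genes against these shares. Plod1, a lysyl hydroxylase, was at 0.26 ± 0.13 (SE, n = 4 per group, and 0.14 both without vehicle 4 and with its probe sets averaged). Crtap, a subunit of the prolyl 3-hydroxylase complex, was at 0.19 ± 0.10 (0.10 without vehicle 4), and Sec23a, a coat protein of the vesicles that carry procollagen out of the endoplasmic reticulum, at 0.15 ± 0.10 (0.06 without vehicle 4). P4hb, P3h1 and Serpinh1, also higher in 4 of 4 pairs, were at 0.095, 0.14 and 0.09 with all samples. Without vehicle 4 they were at 0.0325, 0.0383 and 0.0233, and Mia3 turned from 0.015 to -0.06. The mean log2 signal of the 14 genes was lowest in vehicle 4, at 8.16, and GW9662 4, at 8.28. It was 8.37 to 8.59 in the other 6 samples. The same samples were lowest for the collagen VI chains.

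Fibril-forming collagens, set beside the collagen VI chains, were higher in 6 of 9 genes and lower in 3, with a median of 0.08. Without the replicate block, 0 genes had an unadjusted limma p under 0.05. With the block, limma called 2 at that threshold, Col5a2 and Col5a1, both higher, as were the 3 collagen VI chains. Col5a2, Col5a1 and Col3a1 were higher in 4 of 4 pairs, and 0 genes of the list were lower in 4 of 4. Col5a2 was at 0.31 ± 0.15 (SE, n = 4 per group, and 0.23 to 0.47 with single samples left out), Col11a1 at 0.50 ± 0.27 (0.18 to 0.72, and 0.27 with its probe sets averaged) and Col5a1 at 0.19 ± 0.14 (0.09 to 0.33). Col1a1 and Col3a1, the main fibrillar chains of dermis, were at 0.07 ± 0.08 and 0.08 ± 0.09, and Col1a2 at -0.03 ± 0.13. Col3a1 was at 0.37 with its probe sets averaged. Without vehicle 4, Col3a1 was at 0.0208 and Col1a1 at 0.0092, and with single samples left out Col1a2 ranged from -0.14 to 0.10. No test compared this list with the collagen VI chains.

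**Figure D5:**
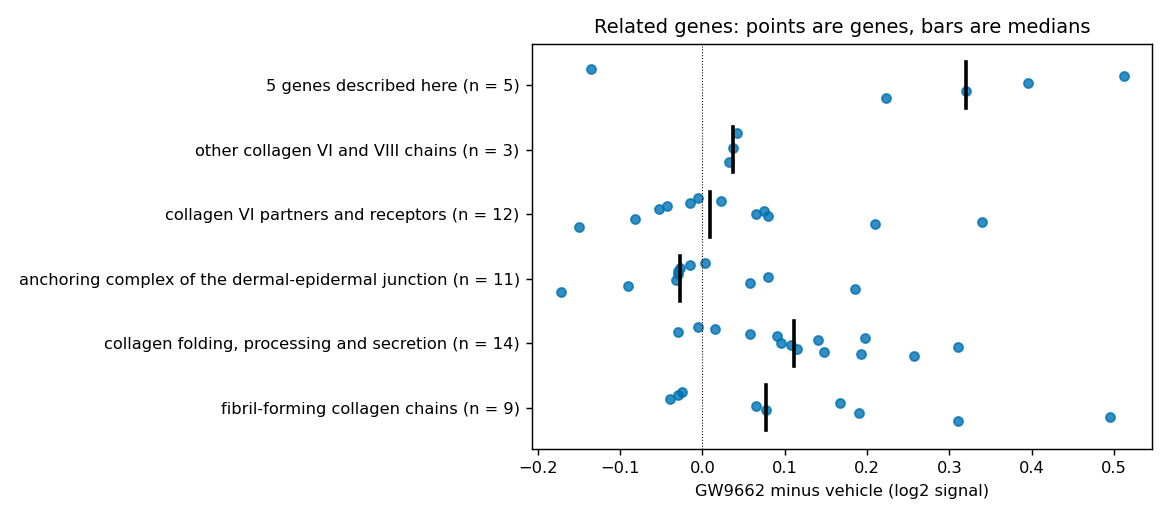
Difference of GW9662 minus vehicle on the log2 scale for single genes (points) of the 5 genes described here and of 5 related lists, with the median of each list as a bar. The medians are 0.32, 0.04, 0.0088, -0.03, 0.11 and 0.08 from top to bottom, and no gene shown passed limma's test over all genes.

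The genes most like the collagen VI chains were sought among 8248 brighter genes by Pearson's r over the 8 samples with the mean of the 3 chains. They were Tnmd, a membrane glycoprotein known from tendon (r = 0.973), Vcan, the proteoglycan versican (0.972), Cnn2, an actin-binding calponin (0.972), Tdg, a DNA glycosylase (0.964), and R3hdm4 (0.962). Tnmd measured 7.93 ± 0.41 in vehicle and 8.54 ± 0.51 after GW9662 (SD, n = 4), a difference of 0.60 ± 0.26 (SE), and Vcan differed by 0.19 ± 0.19. Without pair 4 the r values were 0.924 to 0.966. Col7a1 was most like Cog7 (r = 0.979), a subunit of a Golgi tethering complex, Lrrc4c (0.944) and Myo10 (0.944), a myosin of filopodia. Its signal was far higher in GW9662 3, at 6.76, than in the other samples, at 4.55 to 5.43. How far these r values rest on that sample was not tested. Col8a1 was most like Tmem89 (0.932), Mras (0.927), a GTPase related to Ras, and Sergef (0.923). These are the highest of many values over samples that share array, amplification and day, and they carry no test.

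For markers of cell types other than fibroblasts, the ranges of the 2 groups overlapped. The mean log2 signal of the 10 endothelial markers ranged from 4.57 to 4.96 in vehicle and from 4.65 to 4.87 after GW9662. That of the 8 measured pericyte and smooth muscle markers ranged from 4.94 to 5.11 and from 4.83 to 4.997. Of these 8 genes 3 were higher and 5 lower, among them Kcnj8 at -0.39 ± 0.18 (SE, n = 4 per group), lower in 4 of 4 pairs (-0.47 to -0.21 with single samples left out). Acta2 was at 0.15 ± 0.10 and higher in 3 of 4 pairs (0.04 with its probe sets averaged). For the 5 measured adipocyte markers the ranges were 4.31 to 4.47 and 4.18 to 4.38, for the immune markers 4.45 to 4.52 and 4.43 to 4.47, for the 5 measured Schwann cell markers 4.68 to 4.73 and 4.63 to 4.73, and for the melanocyte markers 4.84 to 5.06 and 4.91 to 5.13. Of the adipocyte markers 0 were higher and 5 lower, and of the immune markers 2 and 6. Endothelial markers had 5 higher and 5 lower, Schwann cell markers 2 and 3, and melanocyte markers 4 and 2. Over all genes 51.8% were lower. The fibroblast markers ranged from 10.2 to 10.5 and from 10.3 to 10.4, and vehicle 4 was the lowest sample. In none of the marker lists did a gene pass limma's test, and their part in the collagen values was not tested.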

How the data were processed

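The authors deposited log2 signals for 45141 probe sets in each of 8 samples. RMA and affy are named, with no version, per the submitters' processing notes. RMA corrects background, equalises array distributions and summarises probes, and amplification from few cells can change relative signals. That the logarithm has base 2 was inferred from the range of signals. The platform's annotation table gave the gene names (28898 with 1 gene, 551 with several, 15692 unnamed here), with symbols updated through a mouse RefSeq table. The probe set of highest mean stood for a gene. GW9662 minus vehicle was estimated by lmFit and eBayes (limma 3.58.1, R 4.3.3) without covariates or a filter, with Benjamini-Hochberg adjustment over 17097 genes, and again over 28898 probe sets. Tests were two-sided, and the smallest exact permutation p for 4 against 4 is 0.0286.

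As a check of pairing, the correlation across genes of both partners' deviations from their group means was 0.203, 0.163, 0.114 and 0.165 for numbers 1 to 4, and the design text says that 1 animal per group was taken on the same day, so the numbers were read as pairs. Identical values made up at most 3.05% between any samples. Precision is limited by the number of animals. The procedure was tested on simulated data. Named genes were the 5 genes, Pparg, Pdgfra and Cd34, the 3 genes of smallest p per related list, and the genes of highest r; other genes named were chosen after their values were seen. The members and lists were chosen with earlier results of these data known.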

Additional observations from a re-analysis of the deposited data

Results flagged for a closer look

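A total of 22 groups of 4 samples was tested for a sample far from the others, and chance flags about 1 in 20. In vehicle, sample 1 stood apart on the middle of the 3 Col8a1 probe sets, with a signal of 3.68 against 3.98 to 4.00 in the other 3 samples. Its partner GW9662 1 was the highest of its group on that set, at 4.12. In vehicle, sample 3 stood apart in Col6a3 minus Col6a1, with a log2 difference of -0.70, since its Col6a3 signal of 10.24 was the highest of the group while its Col6a1 signal of 10.94 was not.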

How the results depend on the processing

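Over 18 alternative fits (17 for Col7a1, which is not among the brighter genes), Col6a1, Col6a2 and Col6a3 kept their direction, with ranges of 0.16 to 0.35, 0.21 to 0.49 and 0.25 to 0.66. Col7a1 turned to -0.0533 without pair 3 and Col8a1 to 0.0025 with the mean of its probe sets; the first rests on fewer samples, and the second averages sets that differ in sign. No member gene passed at an adjusted p of 0.05 in any fit (smallest 0.841). The replicate block changed no other call: 0 genes and 0 probe sets passed with it, as without it, and 3 member genes had an unadjusted p under 0.05, against 0 without it. That count was 3 without pair 4, with or without the block, and 0 to 4 with single samples left out. In the fit without pair 4 but with the block, 1 gene, not a member, passed over all genes, and 578 genes had an unadjusted p under 0.05 in the main comparison. With single samples left out, the differences ran from 0.16 to 0.35 for Col6a1, 0.21 to 0.49 for Col6a2, 0.25 to 0.66 for Col6a3, 0.10 to 0.79 for Col7a1 and -0.20 to -0.07 for Col8a1. Between chains they ran from 0.04 to 0.15 (Col6a2 minus Col6a1), 0.09 to 0.35 (Col6a3 minus Col6a1) and -0.005 to 0.20 (Col6a3 minus Col6a2). Of the 3 correlations past the threshold, 2 passed without vehicle 4, 0 without pair 4 and 0 without the 2 farthest samples, where fewer samples entered. The correlation of Col6a1 and Col8a1 turned to -0.14 as Spearman's rho, -0.22 without pair 4 and -0.0781 without the 2 farthest samples. That of Col7a1 and Col8a1 turned to 0.11 with group means removed and 0.18 without the 2 farthest samples. That of Col6a3 and Col7a1 turned to -0.25 with group and replicate number removed, as in the replicate block. No scaling moved the median of all genes by over 0.1.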
